A study of Homo sapiens with 6 samples.

Results

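The melanosome is the organelle in which pigment cells make and store melanin. Its genes TYR, TYRP1, DCT, PMEL, MLANA, SLC45A2, OCA2, GPR143, TRPM1 and RAB27A, which serve as markers of the pigmented state, were found by their Ensembl identifiers, 10 of the 58302 genes counted in each library. Messenger RNA was sequenced from 6 libraries of A375, a human malignant melanoma line. In 3 of them the cells stably carried an empty lentiviral vector (EV1 to EV3) and in the other 3 an HMGB2 overexpression vector (OE1 to OE3). HMGB2 is a chromatin protein of the high mobility group, and the comparison asks how raising its level changes expression in unconfined melanoma cells. Both lines went through lentiviral infection and drug selection, were lysed as pellets of cultured cells and carried no other stated alteration. The promoter of the overexpression vector is not given in the sources used here, nor whether a line was a single clone. The study's reporting form calls the replicates technical, so each p-value measures only the spread between such pellets.

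Melanin is made by tyrosinase (TYR), which oxidises tyrosine, and by the related enzymes TYRP1 and DCT, which act on later intermediates. The enzymes work on a scaffold of PMEL fibrils inside the melanosome, transporters and channels in its membrane set its pH and ion content, and RAB27A ties the mature organelle to the actin motor that carries it to the cell edge. In melanocytes and pigmented melanomas the transcription factor MITF, acting with SOX10, drives most of these genes through a short motif in their promoters, and undifferentiated melanoma lines are known to have lost much of this program.

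The motif to which MITF binds, CATGTG, is shown in the promoters of the 3 melanin enzymes, because these are the genes at which its use in pigment cells is best known. Each stretch is the 250 bases before a RefSeq start site in GRCh38.p14, on the strand of the gene, with CATGTG or its reverse complement CACATG in capitals. The TYR stretch is chr11:89177625-89177874 (plus strand), the TYRP1 stretch chr9:12693135-12693384 (plus strand) and the DCT stretch chr13:94479683-94479932 (minus strand).
TYR: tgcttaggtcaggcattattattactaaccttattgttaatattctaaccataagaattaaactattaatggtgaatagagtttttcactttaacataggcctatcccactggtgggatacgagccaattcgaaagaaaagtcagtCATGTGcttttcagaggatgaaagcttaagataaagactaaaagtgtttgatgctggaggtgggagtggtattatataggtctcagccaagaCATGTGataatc
TYRP1: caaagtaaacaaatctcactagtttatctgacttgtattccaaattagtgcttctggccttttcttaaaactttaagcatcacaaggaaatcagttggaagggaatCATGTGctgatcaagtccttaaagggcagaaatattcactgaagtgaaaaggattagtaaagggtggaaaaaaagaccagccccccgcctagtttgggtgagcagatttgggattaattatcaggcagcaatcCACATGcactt
DCT: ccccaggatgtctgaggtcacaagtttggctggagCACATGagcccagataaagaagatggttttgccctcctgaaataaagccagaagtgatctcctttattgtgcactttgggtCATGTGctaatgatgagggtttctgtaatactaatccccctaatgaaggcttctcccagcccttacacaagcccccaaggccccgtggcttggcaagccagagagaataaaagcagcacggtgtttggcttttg
RefSeq start sites were on hand for 8 of the 10 genes, with 14 promoters among them. At least 1 CATGTG on either strand stood in 7 of these promoters, belonging to 6 genes: TYR, TYRP1, DCT, OCA2, GPR143 and TRPM1. The motif occurs in 9.42% of all 35116 RefSeq promoters of the same length. The longer form TCATGTG, which contains it, was found for 4 of the genes and in 2.52% of all promoters. The related CACGTG stood in none of the 14 promoters and in 6.34% of all. The first bases of the motif lay 104 and 12 bases before the start in TYR, 144 and 11 in TYRP1, and 215 and 134 in DCT. In MLANA and RAB27A these letters were not in the windows searched.

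Reads were counted against the 10 genes in 2 ways. The count without regard to strand leaves out every read that falls where genes on opposite strands overlap, and is called the either-strand count here. The sum of the 2 strand-specific counts keeps such reads but, because the library kit does not mark strand, gives them to both genes, and is called the stranded sum. Between 45925053 and 56755212 reads were assigned to genes per library in the either-strand count, and the groups did not separate by depth (exact permutation test, two-sided p = 0.8, where 0.1 is the smallest that 3 against 3 libraries allow). Library OE3 had 10.6% multiply mapped reads, and the others 2.58% to 4.89%.

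HMGB2 was raised in every overexpression library. Its normalized counts, which are reads divided by each library's size factor, were 7250, 7729 and 7562 in the empty vector libraries and 15090, 16850 and 14610 in the overexpression libraries. This was a log2 fold change of 1.05 (SE 0.10, adjusted p = 4.4e-22 in DESeq2). Library EV3 stood apart from its group. Its gene counts differed from those of EV1 and EV2 by a chi-square of 73.2 and 81.5 per degree of freedom, against 13.5 between EV1 and EV2 and 16.6 to 35.4 among the overexpression libraries. It also held 260 reads of the keratin gene KRT5, where EV1 and EV2 held 5 and 13 and the overexpression libraries 203 to 275. By the same chi-square OE3 was the most distant overexpression library, at 22.9 from OE1 and 35.4 from OE2, which differed by 16.6. The deviations of EV3 and OE3 from their group means correlated at 0.349. Those of either with the other libraries of the opposite group correlated at -0.272 to -0.137. Deviations from a group mean cancel out within the group, so such values are negative on balance once the 0.349 is positive, and add nothing separate. What the third replicates share was not tested. Without EV3 the number of genes called over the whole table went from 930 to 2854, and values without it are given beside the results it changes. The melanoma identity of the cells was read from 10 markers, of which 9 reached a mean normalized count of 10 in the either-strand count. The other one, SOX10, was listed at 0 there in all libraries and held 28863 to 56464 reads per library in the stranded sum. Among markers of other cell types, the summed normalized count of 8 keratinocyte genes was 11970 to 13300 with the empty vector and 12220 to 13630 with overexpression. For 8 fibroblast genes it was 4215 to 6215 and 5834 to 7386. For 8 blood and immune genes it was 501 to 525 and 534 to 705, and these ranges did not overlap. In the stranded sum the ranges of these 8 genes were 1016 to 1211 and 1153 to 1456, which did overlap. Most of the either-strand sum was LYZ, the lysozyme gene, with 480 to 623 reads per library, while the pan-leukocyte marker PTPRC had no read in any library. The part of these other markers in the results was not tested.

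None of the 10 pigmentation genes was called different between HMGB2 overexpression and empty vector cells, and most of them were near the limit of what these libraries could count. The 10 genes together received 562 to 792 either-strand reads per library, or 11.3 to 15.1 RPM, the usual scaling of reads to the assigned total of a library. RAB27A supplied most of these, and the remaining 9 genes together received 2.31 to 3.13 RPM. TYR, TYRP1 and DCT, the melanin enzymes, summed to between 7 and 25 reads per library. In a bulk library, fewer cells making a transcript and less transcript per cell cannot be told apart. Of the 10 genes, 5 had a mean normalized count of at least 10 and were tested, and 0 of these 5 were called by DESeq2 at an adjusted p of 0.05, where 4.94% of all 18836 genes tested were called, 2.29% higher and 2.64% lower. By edgeR 0 of the 5 were called as well, beside 2.81% of all genes. An unadjusted DESeq2 p under 0.05 was reached by 1 of the 5, beside 8.5% of all 32922 genes with a p. Those 32922 include genes with a mean normalized count under 10, which the 5 do not. In the stranded sum 0 of 5 were called by either tool. DESeq2 called 4.79% of all 21265 genes tested there (2.09% higher, 2.69% lower) and edgeR 2.75%. Again 1 of the 5, RAB27A, had an unadjusted DESeq2 p under 0.05, beside 8.94% of all 35029 genes with a p, those with low counts included. The median log2 fold change of the 5 was 0.10, and that of all genes 0.00272, while in the stranded sum the medians were -0.22 and 0.00171.

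**Figure D1:**
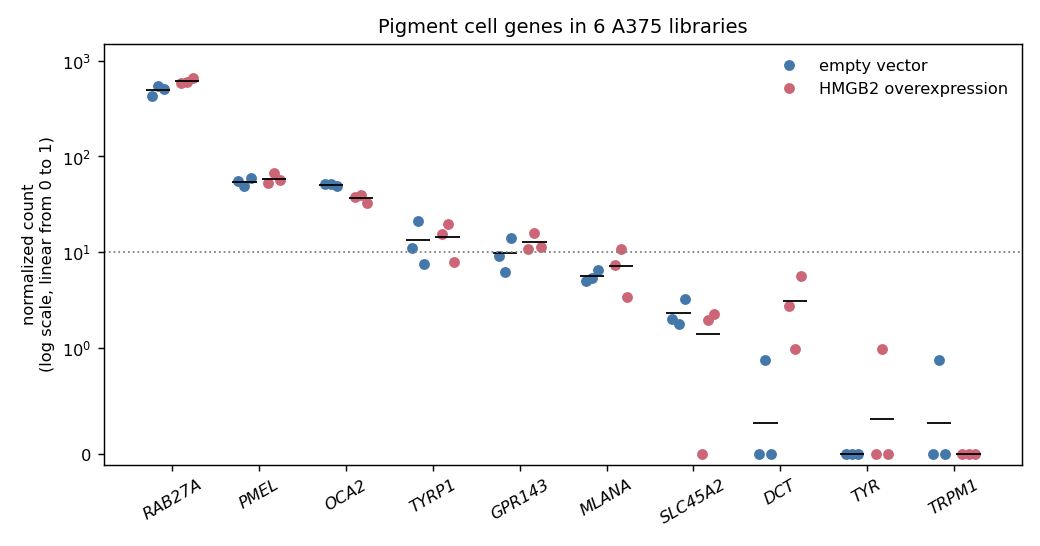
Normalized counts of the 10 pigmentation genes (vertical axis, logarithmic above 1 and linear from 0 to 1) in the 3 empty vector and 3 HMGB2 overexpression libraries, with each group's mean as a line and a dotted line at 10. RAB27A sat at 433 to 654, PMEL and OCA2 between 32.6 and 67.0, and TYR and TRPM1 at 0 in 5 of the 6 libraries.

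PMEL, which forms the fibrils on which melanin is laid down, lies at chr12:55954105-55973317 on the minus strand (hg38). It held 55, 56 and 55 either-strand reads in the empty vector libraries and 58, 68 and 50 in the overexpression libraries. As normalized counts these were 55.6, 49.6 and 59.0 against 52.7, 67.0 and 56.3. The lowest value was in EV2 and the highest in OE2, and the groups overlapped. On the log2 scale PMEL differed by 0.10 (SE 0.28, 95% interval -0.45 to 0.65, adjusted p = 0.938 in DESeq2).

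The stranded sum gave PMEL many more reads, and CDK2, the cyclin-dependent kinase gene on the opposite strand, gained reads there too. PMEL received 1693, 1789 and 2017 reads in the empty vector libraries by this count and 1537, 1593 and 1529 in the overexpression libraries, so that the either-strand count kept 3.37% of them. In the GENCODE 44 annotation CDK2 is the only gene whose exons overlap those of PMEL. They share 89 of the 3671 exon bases of PMEL, all within the last exon of CDK2, and they do so through 1 of 19 annotated PMEL transcripts. The canonical PMEL transcript, of 2126 bases in 11 exons, shares no base with CDK2. The remaining 3582 exon bases of PMEL, 97.6% of all, held on average 15.9 either-strand reads per kilobase and library. The unshared exon bases of CDK2 held 785 reads per kilobase. CDK2 gained 4021 to 4699 reads per library in the stranded sum. The reads that PMEL gained, 1479 to 1962 per library, and those of a further antisense gene, ENSG00000258554, came to 97.9% to 99.1% of that number. The reads that the stranded sum adds to PMEL were thus counted for genes on the opposite strand too, and cannot be told apart from theirs. Spread over the 89 shared bases alone they would come to 18380 reads per kilobase and library, far above the 785 of CDK2, although a read pair is counted there when it only reaches into those bases. The annotation release behind the counts is not given in the sources used here, and whether it shares more of PMEL than GENCODE 44 does was not tested. By GENCODE 44, the either-strand count covers the canonical PMEL transcript. By the stranded sum the PMEL log2 fold change was -0.22 (SE 0.15, adjusted p = 0.578 in DESeq2), and -0.08 without EV3. CDK2 itself was at -0.08 in the either-strand count (adjusted p = 0.896 in DESeq2).

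**Figure D2:**
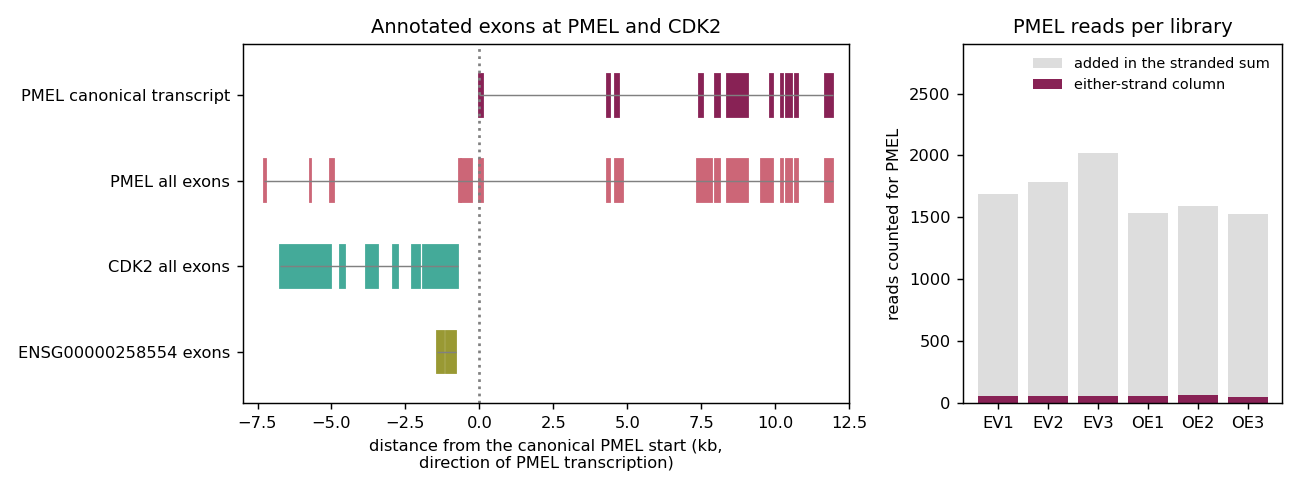
Left, annotated exons at PMEL and CDK2 (boxes) against the distance from the canonical PMEL start in kilobases, running in the direction in which PMEL is transcribed. Right, reads counted for PMEL in each library, with 50 to 68 in the either-strand count and 1479 to 1962 more in the stranded sum.

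MLANA, also known as MART-1, is a small melanosomal membrane protein that PMEL needs for its processing, at chr9:5890889-5910606. It held 5, 6 and 6 reads with the empty vector and 8, 11 and 3 with overexpression, and both counting methods gave the same reads. The groups overlapped. The ratio of overexpression to empty vector, scaled for library size, was 1.31 with an exact 95% interval of 0.666 to 2.64, which covers counting error only.

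The 3 melanin enzymes were at or close to 0. TYR, at chr11:89177875-89295759, gave a single read over the 6 libraries, in OE2 (TYR reads: 0, 0 and 0 against 0, 1 and 0). A count of 0 allows up to 3 reads, which here is 0.0529 to 0.0653 RPM, and TYR was under that limit in both groups. DCT, at chr13:94436811-94479682, gave 0, 1 and 0 reads in the empty vector libraries and 3, 1 and 5 in the overexpression libraries. DCT reads thus numbered 1 against 9, a ratio of 9.14 with an exact 95% counting interval of 1.27 to 400.5. The stranded sum added 1 DCT read in EV3, which made the ratio 4.56 with an interval of 0.944 to 43.4, so the lower bound passed 1 by one counting method and not by the other. TYRP1, at chr9:12685439-12710285, had more reads than the other enzymes, namely 11, 24 and 7 against 17, 20 and 7. Its normalized counts were 11.1, 21.3 and 7.51 with the empty vector and 15.4, 19.7 and 7.88 with overexpression, so that the groups covered nearly the same range. For TYRP1 the log2 fold change was 0.10 (SE 0.63, 95% interval -1.12 to 1.33, adjusted p = 0.976 in DESeq2), and -0.17 without EV3. The antisense gene LURAP1L-AS1 shares 102 exon bases with TYRP1, and the stranded sum, which keeps reads from there, gave 18, 33 and 11 reads against 19, 21 and 7 and a log2 fold change of -0.37 (SE 0.57). The sign of the TYRP1 difference thus turned with the counting method, within its error.

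OCA2, SLC45A2 and TRPM1 encode membrane proteins that act on ion content, and OCA2 had the most reads of these 3. OCA2, a melanosomal channel protein that raises the pH of the organelle and lies at chr15:27754875-28099315, held 51, 58 and 46 reads with the empty vector and 42, 40 and 29 with overexpression. As normalized counts these were 51.5, 51.4 and 49.4 against 38.2, 39.4 and 32.6. The 3 overexpression libraries were all below the 3 empty vector libraries. Of the 5 tested genes 2, OCA2 and RAB27A, had groups that did not overlap. Among the 16692 genes averaging at least 10 normalized counts in the either-strand count, 22.8% had such groups. In the stranded sum it was 22.2% of 19147 genes chosen in the same way. The log2 fold change of OCA2 was -0.46 (SE 0.31, 95% interval -1.07 to 0.14) and did not pass (unadjusted p = 0.133, adjusted p = 0.554 in DESeq2, adjusted p = 0.296 in edgeR). No annotated gene overlaps its exons, and the stranded sum gave the same reads. Without EV3 the OCA2 value was -0.48. SLC45A2, a transporter that also acts on melanosome pH, at chr5:33944623-33984693, gave 2, 2 and 3 reads against 0, 2 and 2, a ratio of 0.580 with an exact 95% counting interval of 0.125 to 2.28. TRPM1, a cation channel at chr15:31001065-31161160, had 1 read in EV2 and none in the other libraries. The stranded sum, which takes in 334 bases shared with the antisense gene ENSG00000259720, gave TRPM1 2, 1 and 0 reads against 0, 0 and 0, too few for a fold.

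GPR143, a receptor of the melanosome membrane that takes part in sizing the organelle, lies at chrX:9725346-9786297. It held 9, 7 and 13 reads in the empty vector libraries and 12, 16 and 10 in the overexpression libraries. As normalized counts the groups were at 9.75 ± 3.92 (SD, n = 3) and 12.6 ± 2.71, with EV3 among the overexpression values. GPR143 differed by a log2 fold change of 0.39 (SE 0.62, 95% interval -0.83 to 1.61, adjusted p = 0.881 in DESeq2). By the stranded sum it was 0.23, from 76 reads in all instead of 67.

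RAB27A, the small GTPase that links melanosomes to myosin Va and that many other cells use for secretion, was the pigmentation gene with the most either-strand reads. It lies at chr15:55202966-55319113 on the minus strand and held 429, 617 and 476 reads with the empty vector and 652, 606 and 581 with overexpression. Its normalized counts were 433, 547 and 511 against 592, 597 and 654, so every overexpression library was above every empty vector library. The log2 fold change was 0.30 (SE 0.14, 95% interval 0.03 to 0.58). The unadjusted p was 0.0301, and over all genes tested RAB27A did not pass (adjusted p = 0.265 in DESeq2, adjusted p = 0.233 in edgeR). Without EV3 the RAB27A log2 fold change was 0.32 (adjusted p = 0.104 in DESeq2). Noncanonical RAB27A exons share 183 bases with PIGBOS1 on the same strand and 154 with PIGB on the other, and the counting methods gave identical RAB27A reads.

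**Figure D3:**
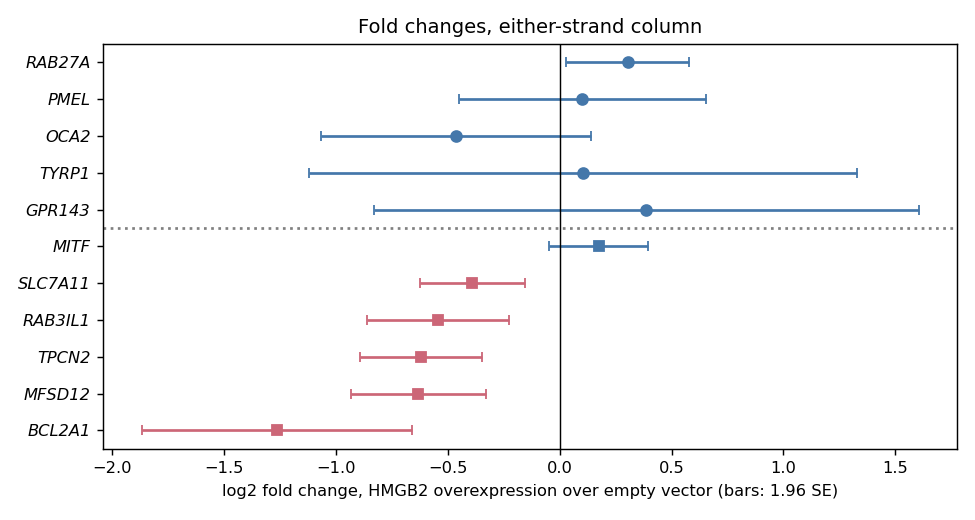
Log2 fold change of HMGB2 overexpression over empty vector (horizontal axis, bars for the 95% interval) for the 5 tested pigmentation genes (circles), MITF and the 5 called genes of the wider pathway (squares), with called genes in red. The interval of RAB27A is the only one of the 5 that leaves out 0, from 0.03 to 0.58, and the called genes run from -1.27 for BCL2A1 to -0.39 for SLC7A11.

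Set side by side per length, the genes fell into steps. Levels are given as RPM per kilobase, that is either-strand RPM divided by the kilobases of exon not shared with other genes, as a mean ± SD over the 6 libraries. RAB27A led with 0.983 ± 0.131, above PMEL at 0.313 ± 0.0337 in all libraries. PMEL and OCA2, at 0.266 ± 0.0502, overlapped. GPR143 (0.0933 ± 0.0284), TYRP1 (0.0754 ± 0.0328) and MLANA (0.0422 ± 0.0172) formed a lower step in which neighbours overlapped, and the ranges of OCA2 and GPR143 did not. SLC45A2 followed at 0.0115 ± 0.00636, below the range of MLANA, and overlapped with DCT at 0.00443 ± 0.00556. TYR and TRPM1 came last, each with 1 read in all. Measured on the longest transcript alone, RAB27A stood at 2.35, because its exons add up to 11345 bases over 16 transcripts, while the order of the 10 genes stayed as it was. Of 19358 protein-coding genes, 48.1% had a lower level than RAB27A, 39.2% a lower level than PMEL and 11.9% a lower level than TYR.

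Most genes of the related lists were present at higher levels per length. None of the 10 pigmentation genes reached 1 on this scale, and their median was 0.0588. This depended on the measure, since RAB27A stood at 2.35 on its longest transcript. PMEL stood at 9.09 in the stranded sum, with reads that cannot be told apart from those of opposite-strand genes. Of 15 further genes linked to melanosomes or pigmentation, SLC7A11 of the plasma membrane among them, 11 reached 1 on the either-strand scale, with a median of 10.5. Among the 11 were GPNMB, a glycoprotein related to PMEL, at 11.3 and CD63, a tetraspanin that sorts PMEL, at 439.7. Below 1 were ATP7A (0.707), MC1R (0.623), KIT (0.00823) and SLC24A5 (0.00189). Of 10 genes for melanosome movement 8 reached 1, and of 20 genes for the biogenesis of lysosome-related organelles 18. MITF was at 4.08, above 65.0% of protein-coding genes, and other MITF targets had a median of 3.71. No test of these differences between lists was made.

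**Figure D4:**
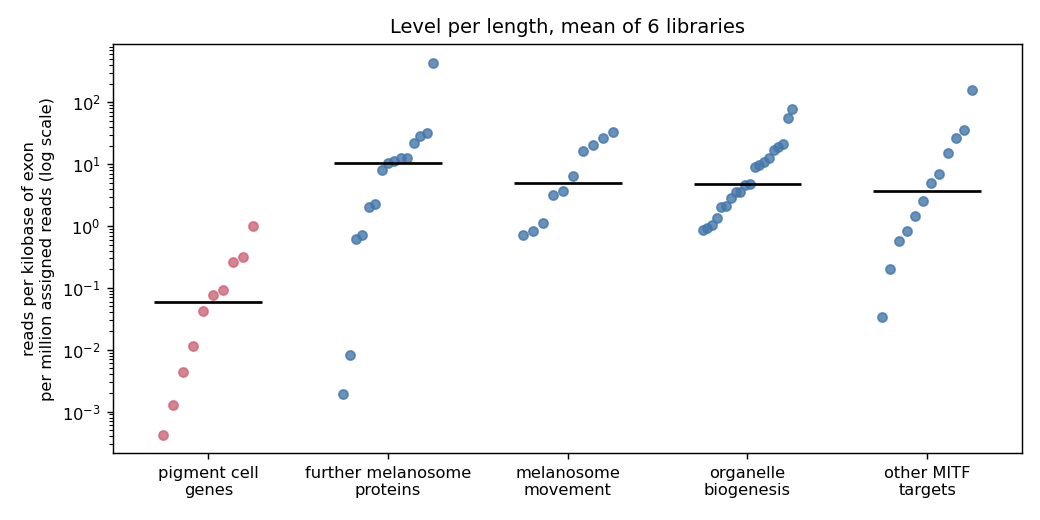
Level per length by the either-strand count (RPM per kilobase of exon not shared with other genes, logarithmic axis, mean of 6 libraries). Shown are the 10 pigmentation genes and 4 lists of related genes, 1 point a gene, with the median of each list as a line. The pigmentation genes all lie below 1, with a median of 0.0588, against 10.5 for the list labelled further melanosome proteins, not all of which are in the melanosome.

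MITF, the regulator of the pigment genes, was not called. Its normalized counts were 1381, 1486 and 1457 with the empty vector and 1479, 1683 and 1719 with overexpression, which overlapped at OE1. The log2 fold change of MITF was 0.17 (SE 0.11, adjusted p = 0.533 in DESeq2). SOX10 was listed at 0 in the either-strand count, so every read it had in the stranded sum was counted for a second feature as well. In GENCODE 44 it shares 260 of its 4826 exon bases with POLR2F on the opposite strand, but POLR2F gained no read in the stranded sum. The gain nearest to that of SOX10 was of ENSG00000279010, an identifier of the count tables that is not in GENCODE 44, with 98.1% to 98.6% as many reads in each library, and the reads of the pair cannot be told apart. With that limit, the SOX10 count was 44830 ± 10930 (SD, n = 3) against 38070 ± 4802, with a log2 fold change of -0.24 (SE 0.18, adjusted p = 0.652 in DESeq2). The SOX10 call depended on the fit. EV3 held 29887 reads where EV1 and EV2 held 51747 and 56464. Without EV3 the log2 fold change was -0.42 (adjusted p = 0.00104 in DESeq2). SOX10 was also called with replicates 1 and 2 alone (-0.32, adjusted p = 5.79e-07 in DESeq2). With all libraries and a term for the third replicates it was called at -0.21 (adjusted p = 0.0215 in DESeq2). With a replicate block it was not called (-0.21, adjusted p = 0.0666 in DESeq2).

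Over the wider pathway, 66 genes in 5 lists, 62 were tested, 0 were called higher and 5 lower with HMGB2 overexpression. These 5 are 8.06% of those tested, where 2.64% of all genes were called lower and 4.94% in either direction. A further 57 were not called, 13 of the 62 had an unadjusted DESeq2 p under 0.05, beside 8.5% of all genes, and the median log2 fold change of the 62 was -0.03. By list, the genes called lower were 3 of 13 further genes linked to melanosomes or pigmentation, 1 of 10 movement genes and 0 of 20 biogenesis genes. Of the regulators 0 of 7 were called lower, and of the other MITF targets 1 of 12. By edgeR 2 of the 62 were called, TPCN2 and BCL2A1, beside 2.81% of all genes. The one-sided direction did not hold in all fits: 6 were called higher and 8 lower without EV3, 7 and 7 with a replicate block, and 8 and 8 with replicates 1 and 2 alone. Over the whole table these fits called 2854, 1826 and 2621 genes, where the main fit called 930.

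TPCN2, an endolysosomal cation channel linked to pigmentation, fell. Its normalized counts were 1092, 887 and 1061 with the empty vector and 656, 719 and 599.9 with overexpression, with no overlap. On the log2 scale TPCN2 changed by -0.62 (SE 0.14, adjusted p = 4.76e-04 in DESeq2, adjusted p = 0.0298 in edgeR). It was called under all 14 alternative settings, from -0.71 to -0.52. MFSD12, which brings cysteine into melanosomes and lysosomes, fell from 7911 ± 1258 (SD, n = 3) to 5106 ± 707, a log2 fold change of -0.63 (SE 0.15, adjusted p = 0.00205 in DESeq2). The MFSD12 call was lost with edgeR (adjusted p = 0.0540) and without EV1 (adjusted p = 0.0733 in DESeq2). In the stranded sum MFSD12 was at -0.59 (adjusted p = 9.67e-04 in DESeq2) and kept its call under all 13 alternatives. SLC7A11, the cystine carrier of the plasma membrane, fell from 5309 ± 200.4 to 4046 ± 492 (log2 fold change -0.39, SE 0.12, adjusted p = 0.0271 in DESeq2). RAB3IL1, an exchange factor for RAB GTPases and the called movement gene, fell from 602 ± 94.8 to 413 ± 35.0 (log2 fold change -0.55, SE 0.16, adjusted p = 0.0205 in DESeq2). The calls of SLC7A11 and RAB3IL1 were lost under 5 and 6 of 14 alternatives.

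BCL2A1, a survival factor of the BCL2 family and an MITF target in melanoma, gave the lowest log2 fold change of the 5. Its reads numbered 99, 120 and 102 with the empty vector and 68, 29 and 36 with overexpression, or 105 ± 4.81 against 43.6 ± 16.8 as normalized counts (SD, n = 3). All overexpression libraries were lower, with a log2 fold change of -1.27 (SE 0.31, adjusted p = 0.00192 in DESeq2, adjusted p = 0.0440 in edgeR). Without OE2, the lowest library, the BCL2A1 log2 fold change was -1.03 and the call was lost (adjusted p = 0.0643 in DESeq2). CSPG4, a melanoma surface proteoglycan among the identity markers, was called lower too (log2 fold change -0.63, SE 0.21, adjusted p = 0.0446 in DESeq2), with groups that overlapped and a call lost under 7 of 14 alternatives. Without EV3 the CSPG4 value was -0.85.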

How the data were processed

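Polyadenylated RNA from A375 cells, 3 empty vector and 3 HMGB2 overexpression libraries, was sequenced from an unstranded kit. The authors demultiplexed with bcl2fastq 2.20, trimmed with Trimmomatic and aligned to hg38 (GRCh38) with STAR. The deposited values are raw read counts per gene, in 3 columns: either strand, and each strand alone. Rows of unassigned reads were left out of totals and fits, and held multiply mapped (2.58% to 10.6%) and ambiguous reads (10.7% to 11.3%). Of 58302 identifiers, 57532 matched GENCODE 44, which gave symbols, positions, exon lengths and overlaps, and the unmatched held 0.0575% of counts.

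The either-strand count and the stranded sum were each fitted with DESeq2 1.42.0 in R 4.3.3, following the study's methods (Wald test, default settings, group as the only term), with Benjamini-Hochberg adjustment over all genes and a threshold of 0.05. Genes with a mean normalized count under 10 are given as reads, with an exact binomial 95% interval of the ratio scaled for library size. The edgeR 4.0.16 quasi-likelihood test, TMM factors, a minimum of 10 counts in 3 libraries, DESeq2 without its filter on low means, a replicate block, a term for the third replicates, replicates 1 and 2 alone and leaving out each library were alternatives. The main DESeq2 fit and the edgeR fit of the either-strand count were run on simulated data. The other alternatives and the fits of the stranded sum were not. Changes were simulated only in genes with higher mean counts than OCA2, TYRP1 and GPR143, so recovery at the level of these genes was not examined. The outcome of the simulation is not given here. Same-numbered libraries correlated in their deviations from the group means at 0.0906, 0.142 and 0.349, so the numbers were not treated as pairing the libraries.

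Named are HMGB2, the pigmentation genes, genes overlapping their exons, MITF, SOX10, called genes of the fixed lists, and the 3 genes most correlated with the member highest in the stranded sum. GPNMB, CD63, ATP7A, MC1R, KIT, SLC24A5, KRT5, LYZ, PTPRC, PPARGC1A, POLR2F and ENSG00000279010 were named after their values were seen. The members and lists were chosen with earlier results of these data known. Levels per length used exon bases not shared with another gene on either strand, and in the stranded sum those not shared on the same strand. The annotation behind the counts holds identifiers that GENCODE 44 does not, so overlaps may differ. Promoters came from RefSeq on GRCh38.p14 and were read over the 250 bases before each start, with motifs searched on both strands. Protein sequence features were not analysed here.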

Additional observations from a re-analysis of the deposited data

How the results depend on the processing

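The count of tested pigmentation genes called stayed at 0 under every alternative, in both counting methods, but TYRP1 and GPR143 could not be called in all of them. In the either-strand count neither received an adjusted p with a replicate block, a third-replicate term or replicates 1 and 2 alone. In the stranded sum neither received one with a replicate block, nor did GPR143 with replicates 1 and 2 alone. GPR143 had none without EV3 in either count. RAB27A (log2 fold change 0.21 to 0.38) and OCA2 (-0.52 to -0.39) kept their direction. PMEL turned without OE2, with -0.0074 to 0.17 over the libraries left out, and in the stranded sum (-0.22). TYRP1 ran from -0.19 to 0.62 over the libraries left out, turning without OE2, EV1 (-0.01) and EV3 (-0.17), and was at -0.37 in the stranded sum, where it ran from -0.65 to 0.027 and turned without EV2. GPR143 in the stranded sum ran from -0.074 to 0.37 and turned without OE2. The counts over all genes moved more. The 930 genes called (432 higher, 498 lower) became 470 (215 and 255) with edgeR, 2621 (1203 and 1418) with replicates 1 and 2 alone, and 2733 (1374 and 1359) with a term for the third replicates. Leaving out single libraries gave 363 to 2854 (155 to 1334 higher, 208 to 1520 lower), and the highest counts were those without EV3. Of the pathway genes, 5 were called (0 higher, 5 lower), 2 with edgeR (2 lower), 16 with replicates 1 and 2 alone (8 and 8), 17 with the third-replicate term (8 and 9), and 2 to 14 without a single library (0 to 6 higher, 2 to 8 lower). The replicate numbers do not pair the libraries by the check made. With them as a replicate block, 1826 genes were called (886 and 940), 14 of them in the pathway (7 higher), and 0 pigmentation genes. The causes of these moves were not tested. On the longest transcript the level per length of PMEL was 0.445 and that of GPR143 0.134. Filters gave the low genes no adjusted p in some settings. TYR, TRPM1, SLC45A2, DCT and MLANA had too few reads to be tested, and the smallest difference detectable at their counts was not worked out. The counting intervals of the either-strand ratio were 0.666 to 2.64 for MLANA, 0.125 to 2.28 for SLC45A2 and 1.27 to 400.5 for DCT. TYR and TRPM1, with 1 read each, had none.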

Other observations

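PMEL had the highest level per length of the pigmentation genes in the stranded sum, at 9.09 RPM per kilobase, here over all of its exon bases. Over the 6 libraries its log2 normalized counts there followed those of SAE1 (Pearson r = 0.997), CC2D2B (0.997) and HDDC3 (0.995) most closely among 15437 genes. SAE1 is a subunit of the enzyme that activates SUMO. These values are a description over 6 libraries of 2 groups, and the PMEL count they use is the one shared with CDK2.

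PPARGC1A, a coactivator of mitochondrial biogenesis that MITF drives in some melanomas, had normalized counts of 10.6 ± 2.27 in the empty vector group and 27.0 ± 8.04 in the overexpression group (SD, n = 3 each). Its groups did not overlap, and its log2 fold change of 1.36 (SE 0.51) did not pass (adjusted p = 0.115 in DESeq2, adjusted p = 0.0936 in edgeR).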
